A study of Mus musculus with 18 samples.

Results

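The genes described are the protein-coding members of the Hox, Pax, sine oculis homeobox, Lhx, Tbx, Nkx and Gata families, chosen by symbol alone from the RefSeq table of the mouse build GRCm38.p6 (mm10): 94 of 21887 protein-coding genes, with Nkx2-1 left out. They comprise 39 Hox genes, 9 Pax, 6 sine oculis homeobox genes, 8 Lhx (LIM-homeobox), 13 Tbx (T-box), 13 Nkx and 6 Gata genes. Open chromatin was read from peak lists of ATAC-seq, an assay in which a transposase cuts accessible DNA and tags it for sequencing. The cells were lung epithelial cells of adult C57BL/6 mice aged 6 to 12 weeks, sorted as Epcam+ Sca-1+ and free of the endothelial and blood markers CD31 and CD45. They were split by the level of CD24 into a negative (CD24neg), a low (CD24low) and a high (CD24high) population. In each arm were 3 mice, which had received G9ai, an inhibitor of the histone H3 lysine 9 methyltransferase G9a whose compound name the labels do not give, or vehicle. Libraries were made from 10000 cells, and no label gives a genetic change in either arm. Of 18 samples, 10 were analysed, namely the peak lists for G9ai replicates 2 and 3 of all 3 populations, for vehicle replicates 2 and 3 of CD24low, and for vehicle replicate 3 alone of CD24neg and CD24high. Replicates of both arms were thus at hand in CD24low alone.

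Genes of these families encode transcription factors that lay out the embryo. Hox genes sit in 4 clusters and specify position along the body axis, Pax, Lhx and sine oculis genes act in sense organs, kidney, muscle and nervous system, T-box and Nkx genes in heart, limb, gut and neural tube, and Gata genes in blood, heart and endoderm. In tissues where they are silent, many are held under Polycomb marks (methylation of lysine 27 of histone H3) over CpG-rich promoters, while G9a places the distinct mark of mono- and dimethylated lysine 9. Gata6, several Tbx genes and the Hox5 paralogs have known roles in lung development.

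Each list came from 1 library and held 2552 to 12985 peaks after repeated lines were dropped. Nearly all of them were particular to 1 arm: the 7379 and 7361 peaks of the CD24low G9ai lists, for example, gave 7172 regions with a peak in both of these lists and in neither vehicle list. The number of peaks in the window of each of the 94 genes was the same in both lists of every replicate pair, which therefore says little about the spread between mice. Chromatin that was open in both arms would not appear, so the lack of a listed peak does not show a closed gene. The lists carry no read counts, and depth is unknown. The lists of vehicle replicate 3 from CD24neg and CD24high each held 5 peaks on chromosome Y, the G9ai lists of the same populations 1 each and the CD24low lists 0. The labels give no sex, and the part of this difference in the results was not tested. A region here is a union of overlapping peaks of one population. It is G9ai-only when every G9ai library and no vehicle library has a peak there, and vehicle-only in the opposite case. A region was linked to a gene when it touched the gene span or the 1000 bp on either side. Scores are the authors' peak scores, and the percentile after a score is its rank within its own list.

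In all, 6 of the genes had a region over a RefSeq promoter window, the 250 bases before to 50 after a transcription start. Sequences of these windows are shown because they are the places where a listed region overlapped the promoter window of a known start. Not every such region contains the start itself. Each runs 5′ to 3′ on the gene's own strand, from the RefSeq table of GRCm38.p6, with the bases inside the listed region in capitals.
Nkx6-2, CD24neg G9ai-only, chr7:139582748-139583047, minus strand: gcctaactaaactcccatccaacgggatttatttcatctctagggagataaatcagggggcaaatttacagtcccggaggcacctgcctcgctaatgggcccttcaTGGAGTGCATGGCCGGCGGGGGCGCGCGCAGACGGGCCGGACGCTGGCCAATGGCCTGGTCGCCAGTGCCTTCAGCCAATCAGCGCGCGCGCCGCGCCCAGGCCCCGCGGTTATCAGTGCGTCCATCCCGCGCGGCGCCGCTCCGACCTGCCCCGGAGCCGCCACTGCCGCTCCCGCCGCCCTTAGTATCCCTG
Tbx1, inner start, CD24neg G9ai-only, chr16:18588850-18589149, minus strand: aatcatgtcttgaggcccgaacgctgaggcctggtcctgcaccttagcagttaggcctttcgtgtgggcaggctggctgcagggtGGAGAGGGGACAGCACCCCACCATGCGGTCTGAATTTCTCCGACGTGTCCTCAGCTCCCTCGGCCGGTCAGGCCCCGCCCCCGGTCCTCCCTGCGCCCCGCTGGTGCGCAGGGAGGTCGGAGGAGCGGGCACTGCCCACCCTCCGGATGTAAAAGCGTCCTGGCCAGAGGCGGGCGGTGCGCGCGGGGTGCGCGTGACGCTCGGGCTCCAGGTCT
Tbx1, outer start, CD24high vehicle-only, chr16:18590622-18590921, minus strand: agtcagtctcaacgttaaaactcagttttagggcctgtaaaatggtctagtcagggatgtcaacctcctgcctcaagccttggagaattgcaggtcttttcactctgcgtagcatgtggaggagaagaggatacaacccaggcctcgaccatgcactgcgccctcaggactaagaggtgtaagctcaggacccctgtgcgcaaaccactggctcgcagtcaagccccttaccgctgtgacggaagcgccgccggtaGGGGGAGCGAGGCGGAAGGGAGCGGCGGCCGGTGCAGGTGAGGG
Lhx6, CD24high vehicle-only, chr2:36105359-36105658, minus strand: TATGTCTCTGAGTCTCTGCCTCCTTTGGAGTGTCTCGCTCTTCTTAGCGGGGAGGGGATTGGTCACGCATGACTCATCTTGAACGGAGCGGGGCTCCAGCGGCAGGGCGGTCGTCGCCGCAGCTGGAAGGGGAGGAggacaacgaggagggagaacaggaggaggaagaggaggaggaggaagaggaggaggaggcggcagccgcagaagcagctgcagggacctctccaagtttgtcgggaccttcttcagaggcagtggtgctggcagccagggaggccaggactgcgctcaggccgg
Hoxd10, CD24high vehicle-only, chr2:74691641-74691940, plus strand: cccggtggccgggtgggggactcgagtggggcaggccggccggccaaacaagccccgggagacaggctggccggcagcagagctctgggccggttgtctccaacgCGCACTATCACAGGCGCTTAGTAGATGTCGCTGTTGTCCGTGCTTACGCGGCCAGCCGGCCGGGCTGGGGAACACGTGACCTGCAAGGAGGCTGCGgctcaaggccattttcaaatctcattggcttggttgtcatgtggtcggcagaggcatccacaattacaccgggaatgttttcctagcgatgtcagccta
Tbx20, CD24high vehicle-only, chr9:24774254-24774553, minus strand: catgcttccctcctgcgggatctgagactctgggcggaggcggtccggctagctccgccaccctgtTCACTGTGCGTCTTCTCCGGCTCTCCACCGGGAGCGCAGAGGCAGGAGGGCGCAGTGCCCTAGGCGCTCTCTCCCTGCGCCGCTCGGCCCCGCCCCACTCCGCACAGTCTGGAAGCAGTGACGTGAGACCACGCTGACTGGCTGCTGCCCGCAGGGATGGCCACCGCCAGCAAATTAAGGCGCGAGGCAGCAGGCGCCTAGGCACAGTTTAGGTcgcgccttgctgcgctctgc
Pax7, CD24low vehicle-only, chr4:139832919-139833218, minus strand: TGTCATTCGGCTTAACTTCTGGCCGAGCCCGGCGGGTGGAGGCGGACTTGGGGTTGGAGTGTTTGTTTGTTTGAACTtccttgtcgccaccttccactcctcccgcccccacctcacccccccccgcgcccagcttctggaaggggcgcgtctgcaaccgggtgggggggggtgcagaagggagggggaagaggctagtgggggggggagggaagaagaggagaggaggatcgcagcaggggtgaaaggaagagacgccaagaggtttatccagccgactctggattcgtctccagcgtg
The number of CG dinucleotides varied among these windows. The Nkx6-2 window holds 32, of which 29 lie in the region, and the window at the inner Tbx1 start holds 26, of which 23 lie in it. The Tbx20 window holds 26, Hoxd10 22, Pax7 17, and Lhx6 and the outer Tbx1 start 16 each. Over the 78 promoter windows of the 64 member genes that the table holds, the median was 16.5 CG (range 1 to 45), against 13 over the 21263 windows of all protein-coding genes. The letters GATAA, the core bound by Gata factors, occurred on either strand in 26.9% of member windows and 22.5% of all windows. For TAATTA, a homeodomain core that reads the same on both strands, the shares were 5.13% and 4.53%, and for the T-box letters AGGTGTGA on either strand 1.28% and 1.15%. Among the printed windows, Nkx6-2 holds GATAA at 2 places, 1 of them in the region, Pax7 holds it once outside the region, and the others hold none of the 3 motifs. Promoters that overlapped a listed region belonged to 6 of 64 members, and to 10.6% of the 17492 genes with a promoter window. By population and arm, CD24neg had 2 members with the inhibitor (1.77% of all genes) and 1, Lhx6, with vehicle (2.34%). CD24low had 1, Tbx1, with the inhibitor (2.73%) and 1 with vehicle (1.69%), and CD24high 0 with the inhibitor (1.35%) and 4 with vehicle (3.36%).

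Of the 94 genes, 32 held a region in at least 1 population and arm, and 62 held no listed peak in any of the 10 libraries. Across all protein-coding genes 43.7% held such a region. These developmental genes are short, with a median span of 7436 bp against 17169 bp, and short genes have fewer regions by length alone. When each gene was given the share of all genes of its length bin that held a region (20 bins), 34.7 of the 94 were expected, so the overall number lay near that of other genes of equal length. Regions in at least 2 populations were held by 6 members, Gata4, Pax9, Tbx1, Lhx6, Nkx2-2 and Tbx6, where 15.2 were expected from length and 22.3% of all genes had them. Gata4, Pax9 and Tbx1 had regions in all 3 populations, as did 8.15% of all genes. No test was made of these counts, which describe the lists of these libraries.

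**Figure D1:**
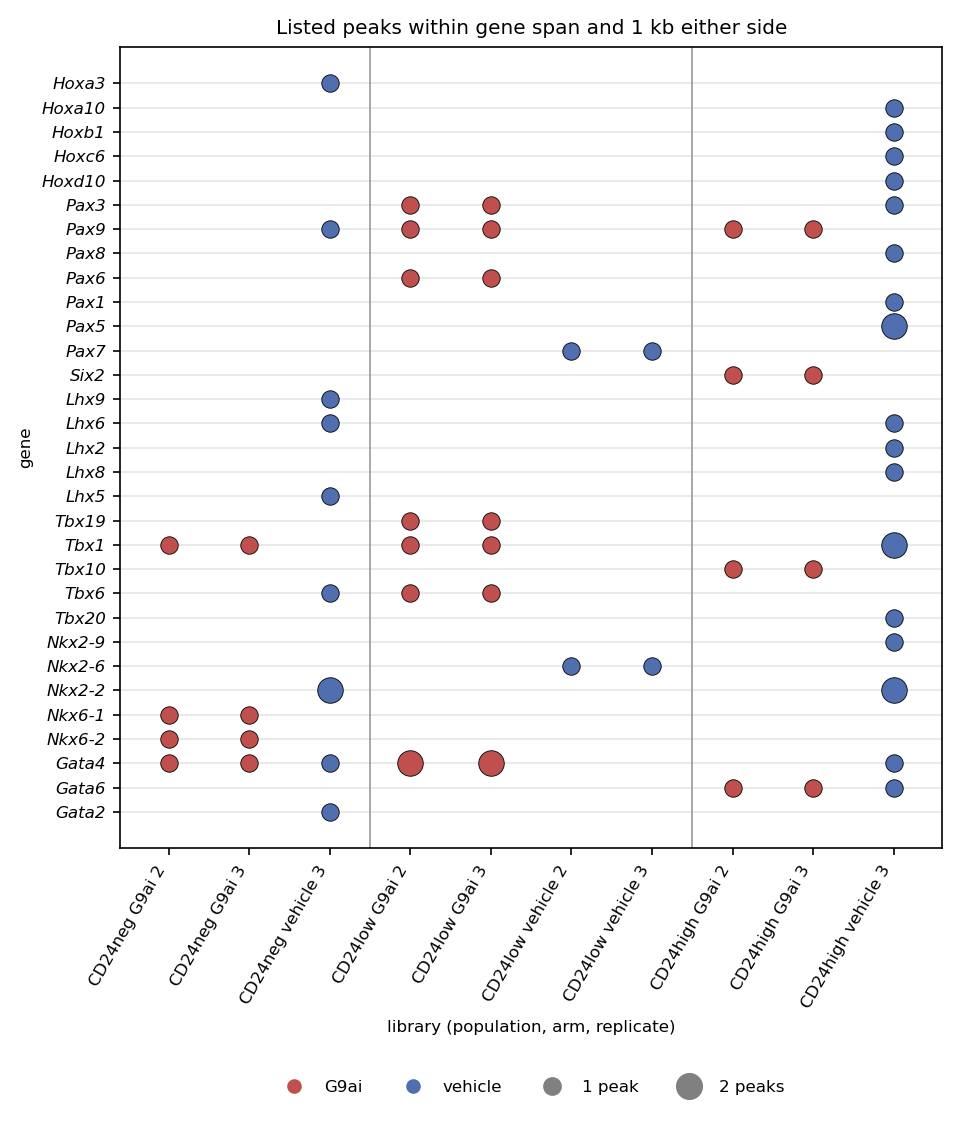
Listed peaks of each library (columns, by population, arm and replicate) in the window of 31 genes with a region (rows). A small disc stands for 1 peak and a large disc for 2, red for G9ai and blue for vehicle libraries. Hox rows carry vehicle discs only, and replicate columns of a group hold equal numbers.

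Listed peaks in these genes were counted by library. Peaks in their windows numbered 4 in each CD24neg G9ai list, 10 in the CD24neg vehicle list, 8 in each CD24low G9ai list, 3 in each CD24low vehicle list, 4 in each CD24high G9ai list and 20 in the CD24high vehicle list. They made up 0.0959% to 0.154% of a list. Of the peaks in any gene window they were 0.147% to 0.236%, while member windows cover 0.183% of the base pairs of all gene windows. Most lay inside genes: 44 of the 48 regions were within the gene span, 2 crossed a gene end and 2 lay outside. Within 1000 bp of a gene end lay 37.5% of the 48, against 27.3% of the gene and region pairs of all genes. These shares are not adjusted for gene length. More of a short gene's window lies near its ends, and the median span was 7436 bp against 17169 bp.

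The comparison in CD24low cells asked where chromatin was listed as open with the inhibitor and not with vehicle, or the reverse. With the inhibitor, 6 members held a region: Pax6, Tbx19, Tbx6, Tbx1, Gata4 and Pax9. With vehicle, 3 did, among them Nkx2-6 and Pax7. Over all genes, 15.9% held a G9ai-only region and 7.44% a vehicle-only region in this population. From gene length 11.0 and 5.50 members were expected, so both numbers lay below that of genes of equal length. Per Mb of window, the members had 3.58 G9ai-only regions against 4.28 in all gene windows. For vehicle-only regions the densities were closer, 1.53 against 1.58. With every list held to the length of the shortest, 2552 peaks, 3 members held a G9ai-only region where 2.24 were expected, so the G9ai-only number then lay above the expected one. Of the 10 regions, 7 were G9ai-only, or 70% (exact Clopper-Pearson 95% interval 34.8% to 93.3%), against 73.1% of all gene-linked regions. Intervals of this kind cover counting error only.

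Pax6, the regulator of eye and pancreatic islet development, had the highest scores of the genes listed with the inhibitor in CD24low. Its region at chr2:105674556-105674762, inside the gene and 5763 bp downstream of the nearest RefSeq start, scored 213 in G9ai replicate 2 (percentile 97.6) and 99 in replicate 3 (percentile 85.2), with no listed peak in either vehicle library. Tbx19, which encodes the pituitary factor Tpit, scored 206 and 97 (percentiles 97.0 and 84.1) in a region 18136 bp downstream of its start (chr1:165142448-165142826). Both genes ranked high in both G9ai lists.

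Tbx6, a T-box gene of the paraxial mesoderm that forms the somites, had a region 612 bp outside the gene and 680 bp upstream of its start (chr7:126780734-126780871), with scores of 141 and 92. That region also lies in the window of Ypel3, so it cannot be given to either gene alone. Tbx1, the pharyngeal arch gene deleted in DiGeorge syndrome, scored 128 and 75 at chr16:18590520-18590625. This region lies inside the gene and reaches 4 bases into the promoter window of the outer start printed above.

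Gata4, a regulator of heart and endoderm, held 2 regions in CD24low, at chr14:63222628-63222797 and chr14:63222868-63222986, deep inside the gene. Replicate 2 scored 79 and 50 there and replicate 3 scored 50 and 64, in the lower part of both lists (percentiles 5.23 to 46). Pax9, needed for teeth, thymus and palate, scored 76 and 59 at chr12:56708579-56708724, 13180 bp downstream of its start. Pax3, a gene of neural crest and muscle precursors, had 1 peak in each G9ai library that did not overlap: chr1:78131828-78131915 in replicate 2 with a score of 62, and chr1:78131688-78131813 in replicate 3 with a score of 55. It was therefore counted in neither arm in this population.

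On the vehicle side, Nkx2-6 ranked below the middle of both CD24low lists and Pax7 near their lower end. Nkx2-6, of the embryonic heart and pharynx, scored 60 in vehicle replicate 2 and 72 in replicate 3 (chr14:69174966-69175156, percentiles 38.8 and 46.9). Pax7, the gene of muscle stem cells, scored 46 and 54 at its promoter (chr4:139833142-139833251, percentiles 8.7 and 16.9), in a region that also overlaps a promoter window of the predicted gene Gm46873. No G9ai library had a peak in these windows. For each of the 10 members with a CD24low peak, Pax3 included, the peak counts per library did not overlap between arms. The genes were taken for having a listed peak and the lists hold arm-specific peaks, so the choice favoured this separation. A window can still hold regions of both arms. In CD24low 0 members did, and over all genes 611 did, beside 2878 with G9ai-only and 1017 with vehicle-only regions alone. Peak counts were equal within each arm. The two-sided exact permutation test therefore gave p = 0.333 wherever the arms differed, the smallest that 2 against 2 libraries allow.

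**Figure D2:**
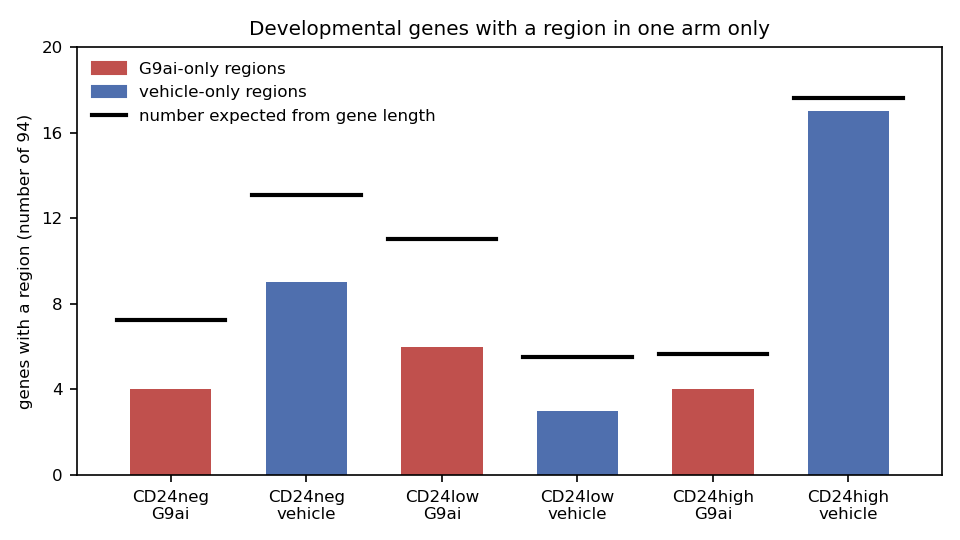
Number of the 94 genes holding a G9ai-only (red bars) or vehicle-only (blue bars) region in each population, with the number expected from gene length as black lines. Bars lie below their lines in CD24neg and CD24low, and at 17 against 17.6 for vehicle in CD24high.

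In CD24neg cells, 4 members held a G9ai-only region (Gata4, Nkx6-1, Tbx1 and Nkx6-2) and 9 a vehicle-only region (Lhx9, Pax9, Nkx2-2, Tbx6, Hoxa3, Lhx5, Gata4, Gata2 and Lhx6). Over all genes the shares were 10.6% and 18.9%, and from length 7.24 and 13.1 members were expected. At 2552 peaks per list the members numbered 1 and 2. Of the 14 regions 28.6% were G9ai-only (exact 95% interval 8.39% to 58.1%), against 31.6% of all gene-linked regions. The vehicle arm rests on 1 library here, so the difference has no replicate check.

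Nkx6-1 and Nkx6-2 are paralogs that pattern the ventral neural tube, and Nkx6-1 also acts in insulin-producing cells. Nkx6-1 scored 133 in G9ai replicate 2 (percentile 91.7) and 54 in replicate 3 (percentile 11), at chr5:101663320-101663465, 1318 bp downstream of its start. Nkx6-2 scored 73 and 68 across its start (chr7:139582735-139582941), and 194 of the 300 bases of its promoter window lay in the region. That region also overlaps a promoter window of the predicted gene Gm33031. In these 2 genes the vehicle library had no listed peak.

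Tbx1 scored 51 and 98 in the G9ai libraries of CD24neg at its inner start (chr16:18588798-18589064), a region whose centre lies 32 bp upstream of that start and which covers 215 bases of the window. It also overlaps a promoter window of the predicted gene Gm35369. Gata4 scored 81 and 108 at chr14:63245203-63245585. A second Gata4 region, at chr14:63207207-63207333, was vehicle-only with a score of 82, so this gene held regions of both arms in CD24neg.

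Among vehicle-only regions of CD24neg, that of Lhx9, a LIM-homeobox gene of the gonads and brain, scored highest with 184 (percentile 94.6). It ends 10 bp inside the higher-coordinate end of the gene (chr1:138848635-138848829). Pax9 scored 139 (percentile 82.7) at chr12:56695858-56695991, 453 bp downstream of a start. Nkx2-2, of the ventral neural tube and pancreas, held 2 regions with scores of 104 and 61 (chr2:147178240-147178370 and chr2:147178928-147179006).

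Tbx6 scored 96 and Hoxa3, of the third pharyngeal pouch, 91. Lhx5, of the forebrain, scored 91 and Gata2, a factor of blood stem cells and endothelium, scored 65 at its start (chr6:88193943-88194014, 87 bp downstream). Lhx6, a gene of cortical interneurons, scored 58 at its promoter. The median percentile of the vehicle-only scores of these genes was 49.8, at the middle of that list. Beside Gata2, markers of blood and immune cells, against which the sort was gated, held vehicle-only regions in 2 of 10 cases (Ptprc and Spi1) and of endothelial cells in 3 of 7 (Pecam1, Tek and Kdr) in this library, against 18.9% of all genes. G9ai-only regions lay in 0 of 10 and 0 of 7, against 10.6% of all genes, and the part of such cells in the Gata2 region was not tested.

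In CD24high cells, 17 members held a vehicle-only region and 4 a G9ai-only region. Over all genes the shares were 25.0% and 8.01%, and from length 17.6 and 5.65 members were expected, so the vehicle number was that of genes of equal length. Vehicle replicate 3 of CD24high had the longest list, and at 2552 peaks per list 3 members held a vehicle-only region (4.77 expected) and 4 a G9ai-only one (4.85 expected). Of the 24 regions 16.7% were G9ai-only (exact 95% interval 4.74% to 37.4%), against 18.3% of all gene-linked regions, and at 2552 peaks per list the members' share was 57.1%. As in CD24neg, the vehicle arm has no replicate.

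The 4 genes listed with the inhibitor in CD24high were Six2, Gata6, Tbx10 and Pax9. Six2, which maintains nephron progenitors in the kidney, scored 93 in G9ai replicate 2 and 54 in replicate 3 (chr17:85665077-85665229). Gata6, the Gata factor of lung endoderm, scored 66 and 73 at chr18:11057669-11057825. A vehicle-only region with a score of 139 followed in Gata6 at chr18:11058910-11059083, so 2 regions of opposite arms lay in the first part of this gene's span, 5159 and 6400 bp from its lower-coordinate end. Tbx10, a relative of Tbx1, scored 73 and 65, and Pax9 73 and 57. Scores of these 4 genes reached at most percentile 58.1.

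The vehicle-only regions of CD24high were led by Gata4 with a score of 252 (percentile 96.5, chr14:63245225-63245650) and Pax5, the B-cell commitment gene and longest of the 94 (185947 bp), with 222 and 85 in 2 regions (chr4:44574728-44574854 and chr4:44564682-44564804). None of the 10 blood and immune markers held a region of either arm in CD24high, where 25.0% of all genes held a vehicle-only and 8.01% a G9ai-only one. Of 7 endothelial markers 3 (Pecam1, Cldn5 and Tek) held a vehicle-only region in that population. Tbx1 had 157 just inside its outer start and 73 near the other end of the gene. Pax1, of the sclerotome and thymus, scored 146, Nkx2-2 136 and 77, Pax8, of thyroid and kidney, 119 and Tbx20, of the heart, 112.

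Tbx20's region (chr9:24774274-24774487) crossed its start, with all 214 bases inside the promoter window printed above. Lhx6 scored 89 at its promoter, and Hoxd10 79 in a region of 96 bases that ends before its start. The remaining vehicle-only scores of CD24high were 86 for Nkx2-9, 80 for Pax3, 79 for Hoxc6, 75 for Hoxa10, 61 for Hoxb1, 59 for Lhx2 and 48 for Lhx8. The median percentile of all 20 scores was 37.3.

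Hox genes held arm-only regions of the vehicle arm alone, a pattern that was not tested. None of the 39 had a G9ai-only region in any population, where 5.77 were expected from length and 25.4% of all genes held one. In vehicle-only regions there were 6, among them Hoxa3, Hoxa10, Hoxb1, Hoxc6 and Hoxd10, where 8.13 were expected and 35.4% of all genes held one. Of these, 4 came from CD24high, 1 from CD24neg and 1 from CD24low. In the higher-scoring 50% of peaks 0 Hox genes had a vehicle-only region, and 1 had with all lists at 2552 peaks. With windows of 5000 bp instead of 1000 bp, Hoxc8 and Hoxc9 gained a G9ai-only region, which is 1 region of CD24high lying between them. The Hox genes with a vehicle-only region then numbered 13 in place of 6. Windows of this size overlap between neighbouring Hox genes, so 1 region can count for several genes. The nearest CD24high region lay 2.81 kb from Hoxc8 and 3.10 kb from Hoxc9.

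Taking each Hox cluster as 1 stretch from its first to its last gene with 1000 bp on either side, HoxA (107.5 kb on chromosome 6) held 4 vehicle-only regions and no G9ai-only one. The HoxB cluster (175.9 kb, chromosome 11) held 2 vehicle-only, HoxC (117.7 kb, chromosome 15) 2 vehicle-only and 1 G9ai-only in CD24high, and HoxD (98.9 kb, chromosome 2) 1 vehicle-only. Together the clusters had 10 regions in 500.1 kb over the 3 populations. The density was 37.2 regions per Mb in HoxA, 11.4 in HoxB, 25.5 in HoxC and 10.1 in HoxD, against 24.5 in the windows of all 94 genes and 23.3 in all gene windows. Hoxa5 and Hoxb5, the paralogs with a known role in the lung, held no listed peak, and the nearest region to Hoxa5 lay 7.07 kb away in CD24neg.

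**Figure D3:**
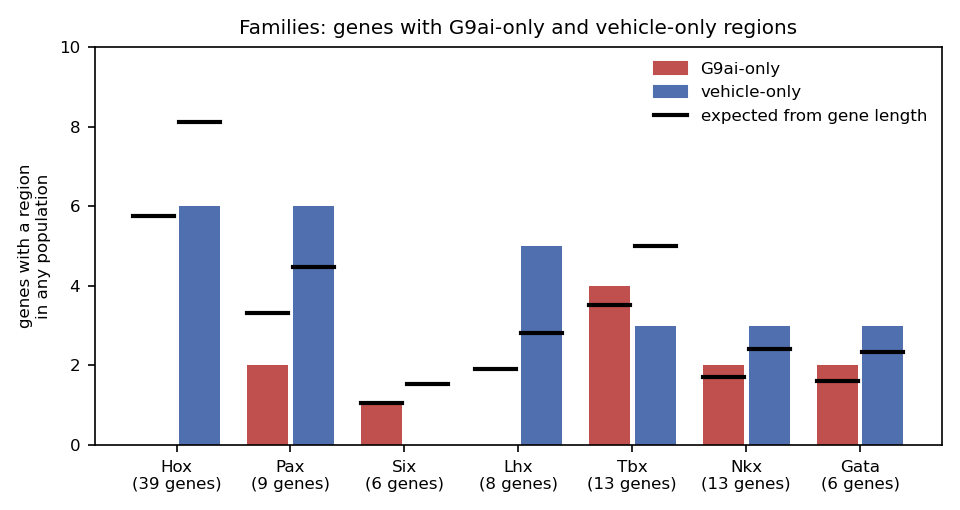
Genes of each family with a G9ai-only (red) or vehicle-only (blue) region in any population, and the numbers expected from gene length (black lines). Hox and Lhx genes had 0 with a G9ai-only region, against 5.77 and 1.90 expected, and Tbx genes 4 against 3.53.

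Lhx genes were likewise listed on the vehicle side. Of 8, 5 held a vehicle-only region (Lhx2, Lhx5, Lhx6, Lhx8 and Lhx9, 2.82 expected) and none a G9ai-only one (1.90 expected). All of these regions came from the 1 vehicle library each of CD24neg and CD24high, the longest lists at 8870 and 12985 peaks. CD24low, with replicates of both arms, had no Lhx region. In the higher-scoring 50% of peaks, and at 2552 peaks per list, Lhx9 was the 1 Lhx gene left with a region. In Pax genes, 6 of 9 had a vehicle-only and 2 a G9ai-only region (4.48 and 3.32 expected). Pax2, an optic and kidney gene, was without a region at 91669 bp, and so was Pax4.

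T-box genes were listed in both arms: 4 of 13 held G9ai-only regions (Tbx1, Tbx6, Tbx10 and Tbx19, 3.53 expected) and 3 vehicle-only ones (Tbx1, Tbx6 and Tbx20, 4.998 expected). The T-box genes of lung mesenchyme and bud had no listed peak: Tbx2, Tbx3, Tbx4 and Tbx5. The nearest regions to Tbx2 lay 1.42 kb away in CD24neg and 7.24 kb in CD24high, and those to Tbx3 at least 288.4 kb away in every population. Tbx15, the second longest member at 113913 bp, had none either.

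Of 13 Nkx genes, 3 had vehicle-only regions (Nkx2-2, Nkx2-6 and Nkx2-9) and 2 G9ai-only regions (Nkx6-1 and Nkx6-2), with 2.41 and 1.72 expected. Of 6 Gata genes, 3 had a region, Gata2, Gata4 and Gata6, and Gata1, Gata3 and Gata5 had none. The nearest region to Gata3 lay 38.4 kb away in CD24neg and 813.5 kb in CD24low. Six2 was the single sine oculis gene with a region (2.07 expected in either arm), while Six4 had none, the nearest lying 5.20 kb away in CD24high.

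By regions per kilobase of window the densest were Tbx1 (0.342), Tbx6 (0.330), Nkx2-9 (0.239), Hoxb1 (0.222) and Nkx2-2 (0.191). The distance from a gene to the nearest region of its population had a median of 134.1 kb over the 94 genes in CD24low, against 45.9 kb over all genes. In CD24neg the medians were 71.9 and 32.2 kb, and in CD24high 18.8 and 21.25 kb. These distances are not adjusted for gene length. Of the 94 genes, 39 are Hox genes that lie in clusters, and neighbours in a cluster often share their nearest region. The medians over the 94 genes therefore do not describe 94 separate places.

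Several of these genes had regions of opposite arms in different populations, in places that overlapped. The Gata4 region listed with the inhibitor in CD24neg shares 361 bp with the one listed with vehicle in CD24high. At Pax9, 121 bp were vehicle-only in CD24neg and G9ai-only in CD24high. Just inside the outer Tbx1 start, 106 bp were G9ai-only in CD24low and vehicle-only in CD24high. The Tbx6 and Ypel3 region was vehicle-only in CD24neg and G9ai-only in CD24low over 127 bp.

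By contrast 2 places kept their arm: Lhx6 at its promoter (75 bp shared) and Nkx2-2 (64 bp shared) were vehicle-only in both CD24neg and CD24high. Of the 6 overlaps between populations, 4 were therefore of opposite arm, and over all listed regions 2666 of 5520 were, or 48.3%. By pair of populations the members had 2 opposite of 4 between CD24neg and CD24high (35.4% of all regions), 1 of 1 between CD24neg and CD24low (53.7%) and 1 of 1 between CD24low and CD24high (60.3%). Of the 94 genes, 4 had G9ai-only regions alone in 1 population and vehicle-only regions alone in another, where 6.86 were expected from length and 9.95% of all genes did.

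**Figure D4:**
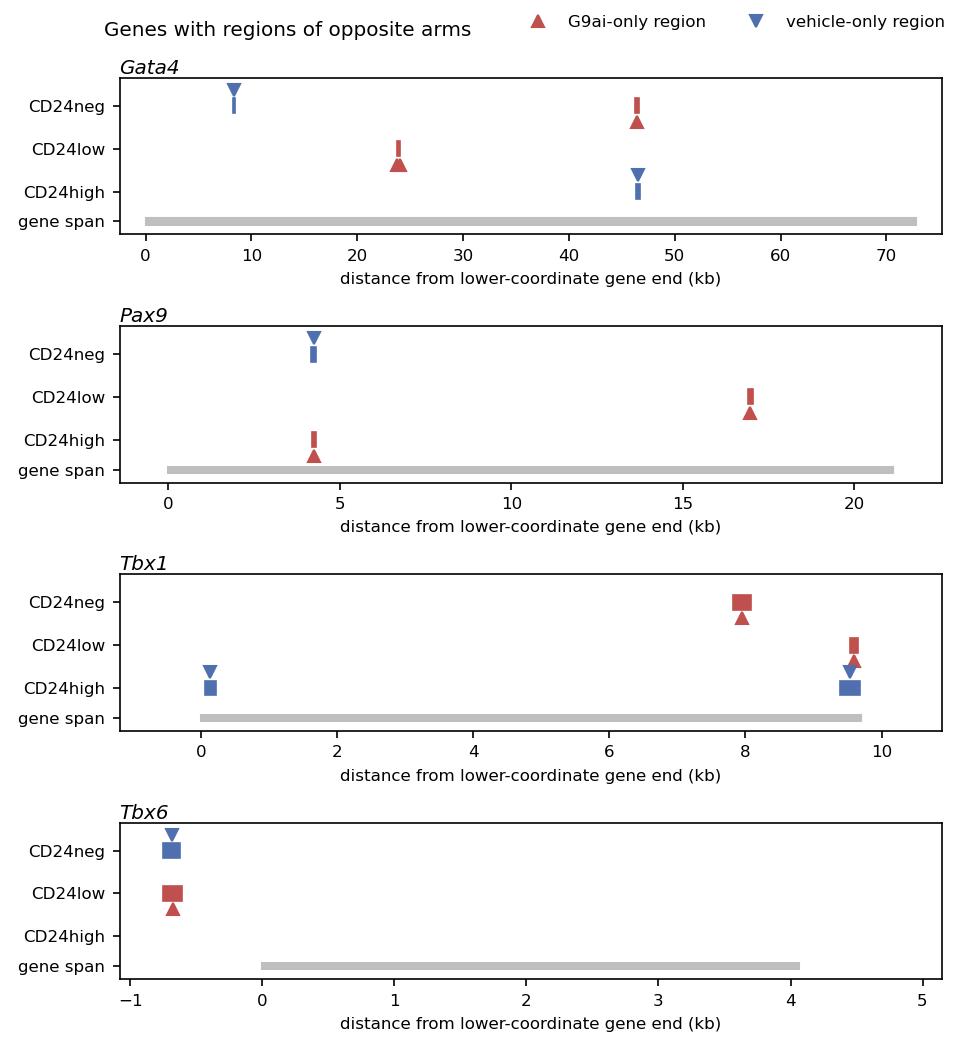
Regions of Gata4, Pax9, Tbx1 and Tbx6 by population, as distance in kb from the lower-coordinate end of the gene span (grey bar), drawn to scale with triangles marking G9ai-only (red, pointing up) and vehicle-only (blue, pointing down) regions. Overlapping places carry opposite colours in CD24neg and CD24high for Gata4 and Pax9, in CD24low and CD24high for Tbx1, and in CD24neg and CD24low for Tbx6.

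Partners of these factors held regions of both arms. Of the 9 TALE homeobox genes, whose products (Pbx, Meis and Pknox) bind DNA with Hox proteins, 7 held a region (5.70 expected from length). In CD24neg 4 of them, among them Meis1, Meis2 and Pbx3, were G9ai-only and 1, Pknox2, vehicle-only. In CD24low the genes were 4 (among them Meis3, Meis1 and Pknox2) and 2 (Meis2 and Pbx3), and in CD24high 0 and 3 (among them Pbx2 and Pknox2). All genes, without adjustment for length, had shares of 10.6% and 18.9% in CD24neg, 15.9% and 7.44% in CD24low, and 8.01% and 25.0% in CD24high. Meis3 had the highest mean score of the TALE genes in CD24low, 158.5. Meis2 was G9ai-only in CD24neg and vehicle-only in CD24low at overlapping places (chr2:116067078-116067276 and chr2:116067089-116067301).

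Eya and Dach genes, partners of the sine oculis proteins, held regions in 5 of 6 cases (4.70 expected). Eya2 had the strongest of them in CD24high, vehicle-only with a score of 176, and Dach1 in CD24low, G9ai-only with a mean score of 173.5. LIM cofactors of Lhx proteins held them in 3 of 6 (3.39 expected), Lmo3 with the inhibitor in CD24low and Lmo2 and Lmo1 with vehicle in CD24high. Gata cofactors did in 3 of 5 (2.81 expected), with Runx1 holding both arms in all 3 populations.

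Polycomb group genes, whose products silence many of the developmental genes, held a region in 23 of 31 cases (16.2 expected). In CD24low 10 were G9ai-only and 3 vehicle-only, in CD24neg 2 and 12, and in CD24high 3 and 11, so the arm with the longer lists held more of them in each population. Over all genes the G9ai-only and vehicle-only shares were 15.9% and 7.44% in CD24low, 10.6% and 18.9% in CD24neg, and 8.01% and 25.0% in CD24high. These shares are not adjusted for gene length. Cbx8, a chromodomain subunit, had a mean score of 258.5 with the inhibitor in CD24low, and Pcgf3 a score of 424 with vehicle in CD24neg. Genes of the opposing trithorax group and the lysine 27 demethylases held regions in 9 of 12 cases (7.25 expected), among them Kmt2a with both arms in CD24neg and CD24low.

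Regions were also counted in marker genes of lung cell types. In lists of arm-specific peaks, a region in a marker does not show that the cell type was present. Over the 3 populations the club cell genes Scgb1a1, Scgb3a2 and Cyp2f2, the multiciliated genes Foxj1, Mcidas and Ccdc39 and the alveolar type 2 genes Sftpc, Abca3 and Lamp3 each held a region in 3 of 3 cases, where 0.897, 1.12 and 1.52 were expected from length and 43.7% of all genes held one. Epcam, Ly6a (Sca-1) and Cd24a held none, which in lists of arm-specific peaks does not show that they were closed. Markers of cells outside the gate held regions in 2 of 10 genes for blood and immune cells (4.63 expected from length) and 4 of 7 for endothelium (3.89). For mesenchyme it was 3 of 8 (3.88) and for mesothelium 1 of 4 (1.76). Neuroendocrine markers held regions in 1 of 4 genes (1.29). Alveolar type 1 and basal markers held them in 1 of 3 genes each (1.28 and 1.36).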

How the data were processed

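ATAC-seq libraries of 10000 sorted cells each were analysed from the lists of peaks that the authors deposited, 10 of 18 samples; the other 8 were not analysed here. FastQC, Bowtie2, MACS2 and the build mm10 are named, per the submitters' processing notes. Versions, read shifting, thresholds and the choice of listed peaks: not given in the sources used here. Peaks were called per library, per the peak names in the files. Each peak carries a score, deposited by the authors without a stated scale, which served to rank it among peaks of its own list.

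Repeated lines (47 to 472 per file) were dropped. Replicate lists shared the exact coordinates of no more than 0.177% of peaks, so every library was counted. Groups and replicate numbers come from the sample titles. Regions were merged per population where peaks shared at least 1 bp. Genes were RefSeq spans on chromosomes 1 to 19, X and Y with 1000 bp either side. The expected number summed, over genes, the share of genes with a region in each of 20 length bins. Promoter windows covered 64 of 94 genes. Gene links and the expectation were tested on simulated data with planted regions. Single genes in CD24low were tested by exact permutation of the arm labels (scipy 1.17.1). The labels tie no replicate number to a mouse, litter or day. Peak counts were equal within each arm, and the genes were chosen for a listed peak. The p-value was therefore the smallest possible wherever the arms differed in peak number, and measures no spread between mice or samples. No set test was made.

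The members and the partner and marker lists were chosen with earlier results of these data known. Named genes were 18 always named, up to 10 per population and arm by mean best score, members in several populations or both arms, the densest and longest members, and up to 3 per partner list, population and arm. All names in the partner and marker lists but Tbxt matched RefSeq. Alternatives were other windows, 50% overlap, the higher-scoring 50% of peaks, equal list lengths, a peak in any library, each replicate left out, and 10 or 50 length bins; leaving out regions shared with another gene was added after the data were seen. Results of some genes are not reported here.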

Additional observations from a re-analysis of the deposited data

Results flagged for a closer look

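Members with regions of the inhibitor arm alone in 1 population and of the vehicle arm alone in another are given here. They were 4 of 94 (4.26%), fewer than the 6.86 expected from length, and 9.95% of all genes did the same. A region is called only when every library of 1 arm and no library of the other has a peak. Agreement of the libraries within a population is therefore fixed by definition. The measure is the number of G9ai-only minus vehicle-only regions, compared between populations; the differences themselves were not tested, and the vehicle arm of CD24neg and CD24high is 1 library. Gata4 had 2 G9ai-only regions in CD24low and 1 vehicle-only region in CD24high, a difference of 3. Tbx1 had 1 G9ai-only region in CD24neg and 1 in CD24low against 2 vehicle-only regions in CD24high, a difference of 3 in both cases. Pax9 had 1 vehicle-only region in CD24neg against 1 G9ai-only region in CD24low and 1 in CD24high, a difference of -2 in both cases. Tbx6 had 1 vehicle-only region in CD24neg and 1 G9ai-only region in CD24low, a difference of -2.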

How the results depend on the processing

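No paired analysis was possible because membership of a list has no fit to which a block could be added, and the arms share 1 replicate number in CD24neg and in CD24high. In CD24low they share replicates 2 and 3, and for each of the 94 genes the difference in peak number between arms was the same within both numbers. Leaving out each replicate in turn, using the gene span alone, asking for 50% of a region in the window, and accepting a peak in any library kept every count of members and regions by population and arm within 1.5 times its value. Leaving out regions shared with another gene, run for the 6 counts of members, did so too. Both lists of a replicate pair hold the same number of peaks in each of the 94 windows. Leaving out a replicate or accepting any library could therefore hardly change a count, and these 2 alternatives do not check the spread between mice. The CD24neg and CD24high vehicle libraries have no replicate to leave out. With 5000 bp windows, members with a vehicle-only region in CD24neg rose from 9 to 15, and the other counts by population and arm stayed within 1.5 times. Hox genes with a vehicle-only region in any population went from 6 to 13. With 10 or 50 length bins every expected number stayed within 1.5 times its value. In peak lists depth is unknown, and it limits what a missing peak can show.

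Fewer peaks or shorter windows lowered most counts by construction. Within 1000 bp of gene ends, members and regions with G9ai-only calls were 1 and 1 in CD24neg, 2 and 2 in CD24low and 0 and 0 in CD24high, and with vehicle-only calls 5 and 5 in CD24neg and 7 and 8 in CD24high. In the higher-scoring 50% of peaks the G9ai-only numbers were 1 and 1 in CD24neg and 0 and 0 in CD24high, with 4 regions in CD24low, and the vehicle-only numbers 4 and 4 in CD24neg, 0 and 0 in CD24low and 8 and 8 in CD24high. With every list at the length of the shortest, 2552 peaks, they were 1 and 1 in CD24neg and 3 and 3 in CD24low for G9ai-only, and 2 and 2 in CD24neg and 3 and 3 in CD24high for vehicle-only. The share of regions that were G9ai-only became 100% in CD24low in the higher-scoring 50%, and in CD24high it was 0% there, 0% around gene ends and 57.1% at 2552 peaks per list.

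Observed members lay below the number expected from length in 6 of 6 comparisons of population and arm as reported. Of 7 alternatives, 4 (1000 bp around gene ends, 50% overlap, the higher-scoring 50%, any library) gave the same 6 of 6, and the other 3 gave 5 of 6. The exceptions were vehicle-only regions of CD24high with the gene span alone (17 against 15.0) and with 5000 bp (24 against 23.2), and G9ai-only regions of CD24low with equal list lengths (3 against 2.24). Regions per Mb of window gave another picture. Members lay below all gene windows in both arms of CD24low and of CD24neg (2.05 against 2.46 G9ai-only, 5.11 against 5.33 vehicle-only). In CD24high they lay above in both arms (2.05 against 1.76 G9ai-only, 10.2 against 7.87 vehicle-only). No Hox window held a G9ai peak in any library, so of these 7 alternatives the 5000 bp windows alone could add one, and with them 2 Hox genes had a G9ai-only region.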

Other observations

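Relatives of these families that the symbol rule leaves out held regions in 12 of 28 cases, where 10.5 were expected from length. Isl2, a LIM-homeobox gene of motor neurons, was G9ai-only in CD24neg (mean score 119.5, chr9:55546245-55546553) and in CD24low (77.5) at overlapping places. Eomes, a T-box gene of early mesoderm and of lymphocytes, was G9ai-only in CD24neg (76.5) and CD24high (89), again at overlapping places on chromosome 9. Pitx3, a homeobox gene of lens and dopamine neurons, was vehicle-only in CD24neg (94) and CD24high (120) at 1 place and G9ai-only in CD24neg (64) at another. Nkx2-1, the lung lineage factor left out of the members, had 1 vehicle-only region in CD24low (mean score 50.5, chr12:56536033-56536138) and 1 in CD24high (score 89, chr12:56537536-56537669), which do not overlap.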
